A study of Mus musculus with 10 samples.

Results

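The genes described here are 36 genes of meningeal fibroblasts and their extracellular matrix, measured by RNA sequencing of lumbar cord from 10 mice, all female and 3 months old. They were chosen by name: each of the 36 symbols was matched to its mouse Ensembl identifier among the 22024 genes of the count table, and the measured values had no part in the matching. All 36 passed the filter on low counts that left 15191 genes for testing, so no member was left out. Each library is polyA-selected RNA from 1 mouse, and the groups were 5 mice with human TARDBP carrying the M337V mutation linked to amyotrophic lateral sclerosis (M337V, animals 1, 2, 3, 7 and 9), 2 mice with the same human gene without the mutation (WT, animals 8 and 10) and 3 nontransgenic C57BL/6 mice (NTg, animals 4, 5 and 6). The product of TARDBP is TDP-43, which binds RNA. Both transgenes are a human genomic clone placed by integrase at the Rosa26 locus of embryonic stem cells, and both lines were bred onto C57BL/6J, so each transgene was studied as 1 integration line that keeps the mouse Tardbp gene. The experimental controls were littermates, per the study's design text, and the zygosity of the animals sequenced is not stated there.

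The spinal cord is wrapped in 3 membranes, the pia, arachnoid and dura mater, whose fibroblasts lay down fibrillar collagens, proteoglycans and elastic fibres. Fibroblasts of the inner layers also carry solute transporters, make prostaglandin D2 and retinoic acid, and secrete insulin-like growth factor 2. Neurons and glia express little of most of these genes, whereas vessel walls, and nerve roots that stay attached at dissection, express many of them. In such bulk samples, fewer cells of a type and less RNA per cell cannot be told apart.

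Libraries held between 18724888 and 21041474 counts assigned to genes. Human TARDBP had 2192 to 2723 counts in the 7 transgenic libraries, 1 in NTg 5 and 4 in NTg 6, but 2415 in the library labelled NTg 4, which goes against its label. Whether that label is wrong was not tested. The mouse Tardbp gene lay between 4402 and 5350 counts in all 10. Every comparison with NTg therefore has this library on one side, and differences are given with and without the library labelled NTg 4 for the members whose values are given library by library. Neural and glial genes were abundant in every library: the summed level of 12 genes of cord neurons and glia was 30920 to 37610 CPM (counts scaled to a common library size) in M337V, 36840 and 33360 CPM in WT, and 23530 to 26610 CPM in NTg. The defining choroid plexus gene Ttr stayed between 0 and 1.99 CPM. Skeletal muscle genes summed to 113 to 318 CPM in M337V, 849 and 134 CPM in WT, and 253, 967 and 1436 CPM in the libraries labelled NTg 4, NTg 5 and NTg 6; the part of carried-over muscle in the results below was not tested.

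Windows of 300 bases around the RefSeq gene start (250 before it and 50 after it, GRCm38.p6) were found for 24 of the 36 members. The 4 below belong to members on which the results turn, with 1 member called lower in WT cord, 1 collagen with a wide range between libraries, and the 2 members whose levels spread most. They are shown to put a sequence beside the levels of these members, which did not all follow 1 pattern over the libraries. Capitals mark 4 short motifs searched on both strands: the CCAAT box (CCAAT or ATTGG), the GC box (GGGCGG or CCGCCC), the TATA box (TATAAA or TTTATA) and a forkhead sequence (GTAAACA or TGTTTAC), forkhead factors being the family of the members Foxc1 and Foxc2. Matches of the 2 TATA spellings overlap in the Ogn window.
Col6a1, chr10:76725995-76726294, minus strand: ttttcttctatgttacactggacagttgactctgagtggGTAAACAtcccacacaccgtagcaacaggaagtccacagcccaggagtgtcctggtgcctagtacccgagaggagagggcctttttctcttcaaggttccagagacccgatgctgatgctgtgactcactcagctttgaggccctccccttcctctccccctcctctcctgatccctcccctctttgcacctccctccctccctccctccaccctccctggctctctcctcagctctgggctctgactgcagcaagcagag
Col1a2, chr6:4505368-4505667, plus strand: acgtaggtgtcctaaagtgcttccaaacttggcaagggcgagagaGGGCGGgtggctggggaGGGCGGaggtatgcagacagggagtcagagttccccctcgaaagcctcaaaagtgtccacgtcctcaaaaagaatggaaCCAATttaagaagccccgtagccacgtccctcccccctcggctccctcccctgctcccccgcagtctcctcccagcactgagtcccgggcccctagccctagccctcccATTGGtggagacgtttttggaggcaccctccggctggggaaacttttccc
Ogn, chr13:49607765-49608064, plus strand: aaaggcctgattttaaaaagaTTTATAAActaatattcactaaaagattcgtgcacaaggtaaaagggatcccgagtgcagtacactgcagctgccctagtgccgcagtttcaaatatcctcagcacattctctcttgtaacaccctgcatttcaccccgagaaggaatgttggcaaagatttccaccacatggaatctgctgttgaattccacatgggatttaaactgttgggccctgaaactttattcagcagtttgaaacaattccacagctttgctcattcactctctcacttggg
Slc13a4, chr6:35308077-35308376, minus strand: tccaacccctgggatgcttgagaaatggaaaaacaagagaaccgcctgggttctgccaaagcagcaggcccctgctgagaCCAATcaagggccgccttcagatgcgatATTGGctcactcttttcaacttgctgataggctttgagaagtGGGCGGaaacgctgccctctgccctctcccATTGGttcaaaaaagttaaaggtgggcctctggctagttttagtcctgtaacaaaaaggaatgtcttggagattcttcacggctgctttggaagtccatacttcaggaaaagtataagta
The windows do not share 1 motif: Col1a2 held 2 CCAAT and 2 GC boxes, Slc13a4 held 3 CCAAT boxes and 1 GC box, Ogn held the TATA spellings only, and Col6a1 held the forkhead sequence only. Over the 34 windows of the 24 matched members, 29.4% held a CCAAT box, against 37.4% of 32851 windows of all genes. These shares count windows and not genes, and 7 of the 24 members had more than 1 window. The GC box stood in 47.1% of member windows against 35.7% of all windows, the TATA box in 8.8% against 13.6%, and the forkhead sequence in 2.9% against 3.6%. These matches describe letters in the window and no binding.

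Levels of the members covered a wide span. Per kilobase of merged annotated exons, Ptgds, the synthase that makes prostaglandin D2 in the leptomeninges and also in oligodendrocytes, averaged 232 CPM over the 10 libraries. Ogn (osteoglycin, a small leucine-rich proteoglycan) averaged 18.2 CPM per kilobase, Igfbp2 (a binding protein of insulin-like growth factors) 15.3, Dcn (decorin, which binds collagen fibrils) 12.1 and Igf2 10.4. The order of these 4 differed between groups, with 18.5 CPM per kilobase for Ogn and 14.8 for Igfbp2 in M337V, and 5.12 for Ogn and 16.2 for Igfbp2 in WT. The lowest levels were those of Foxc2, at 0.438 CPM per kilobase, and Postn (periostin), at 0.246. Without scaling to length, 19 members averaged at least 10 CPM and 2, Crabp2 and Foxc2, averaged under 2 CPM. Counts of a member in a library ran from 5 to 11795, so the rarest of them carry the widest counting error.

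**Figure D1:**
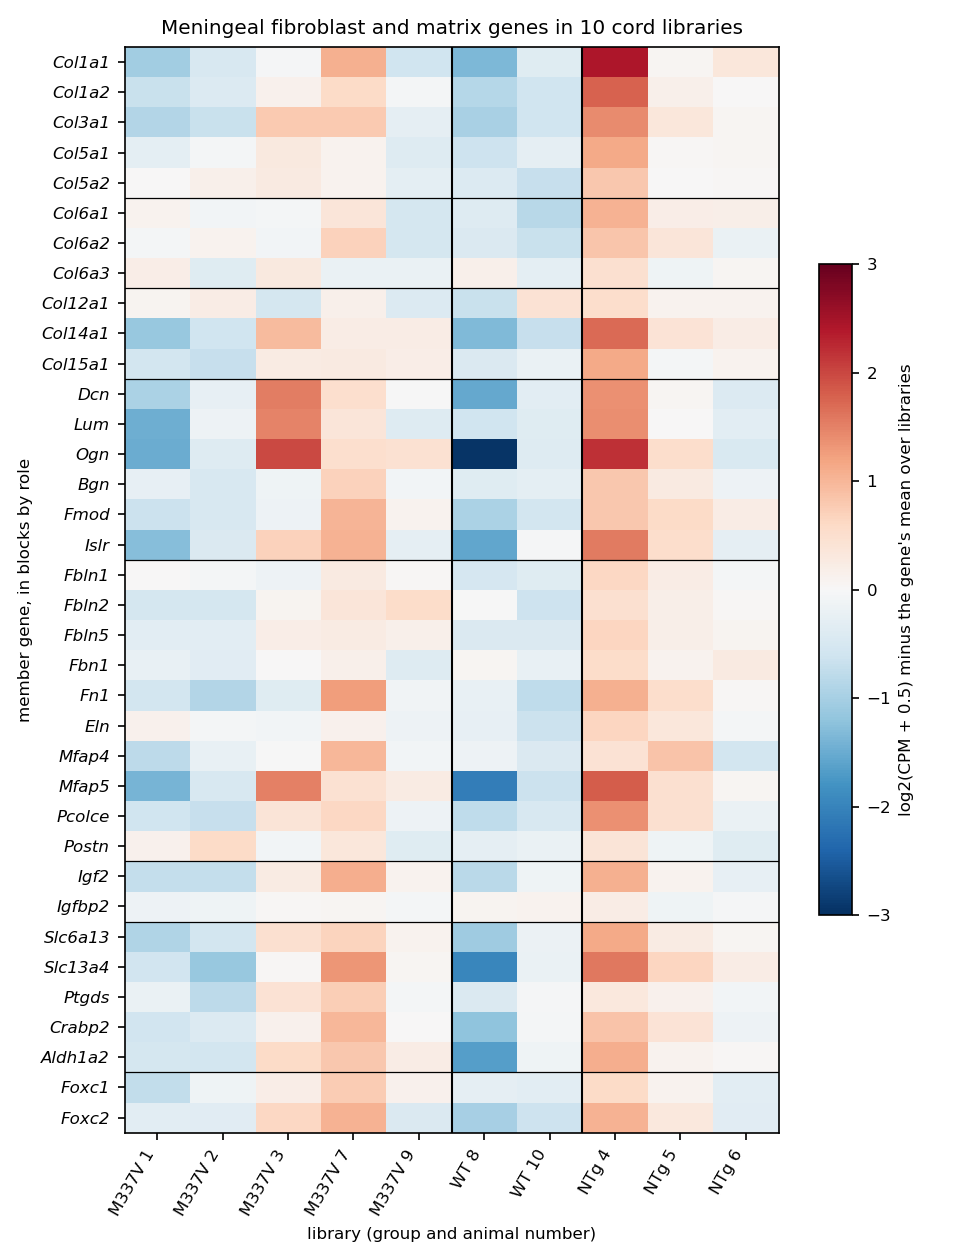
Each row is a member gene and each column a library, with black lines between the M337V, WT and NTg libraries and between blocks of genes of like role. Colour gives log2(CPM + 0.5) relative to the average of that gene in all 10 libraries, red above it and blue below. The library labelled NTg 4 was highest in 24 of 36 members and WT 8 lowest in 19, and M337V 3 and M337V 7 are high in different rows.

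Single libraries stood high or low in most members at once. The library labelled NTg 4 was the highest of the 10 in 24 of 36 members, 66.7%, where it was highest in 16.4% of all tested genes, and it was highest or second in 34. It exceeded both NTg 5 and NTg 6 in 35 members, with a median ratio of 1.81 to their mean and a range of 1.10 for Mfap4 to 4.73 for Col1a1; the median ratio over all tested genes was 1.01. WT 8 was the lowest library in 19 members, 52.8% against 13.3% of tested genes, and lay below WT 10 in 25. Within the M337V group, M337V 7 was the highest of all 10 libraries in 8 members and M337V 3 in 2. The summed level of the 36 members was 704, 646, 1315, 1501 and 890 CPM in M337V 1, 2, 3, 7 and 9, 605 and 798 CPM in WT 8 and 10, and 1855, 1051 and 885 CPM in the libraries labelled NTg 4, 5 and 6. The M337V and NTg sums overlap, both WT sums lie below all 3 NTg sums, and WT 8 has the lowest sum of all.

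Schwann cell and nerve root genes also stood high or low in these libraries. The mean log2 score of 15 Schwann cell and nerve root genes, each relative to its own mean, was -0.57, -0.27, 1.06, 0.16 and 0.28 in M337V 1, 2, 3, 7 and 9, -1.58 and -0.42 in WT 8 and 10, and 1.21, 0.24 and -0.11 in the libraries labelled NTg 4, 5 and 6. Prx (periaxin), a gene of myelinating Schwann cells, read 14.4, 25.7, 157, 61.4 and 73.8 CPM in the same M337V libraries, 0.419 and 23.0 CPM in WT, and 229.9, 55.5 and 45.9 CPM in NTg. Prx was thus nearly absent from WT 8 and most abundant in the library labelled NTg 4, the libraries at the low and high ends of most members. Lists of other cells varied in the same score, given here for the library labelled NTg 4 and then WT 8. It was 1.73 and -1.1 for blood and bone marrow genes, 0.11 and -0.02 for endothelial genes, and -0.01 and 1.75 for skeletal muscle genes. The summed level of 10 Hox genes of the caudal body axis was 12.6 CPM in WT 8 and 37.8 CPM in M337V 3, against 117 to 224 CPM in the other 8 libraries. The part of nerve root and of dissection level in the members' differences was not tested.

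**Figure D2:**
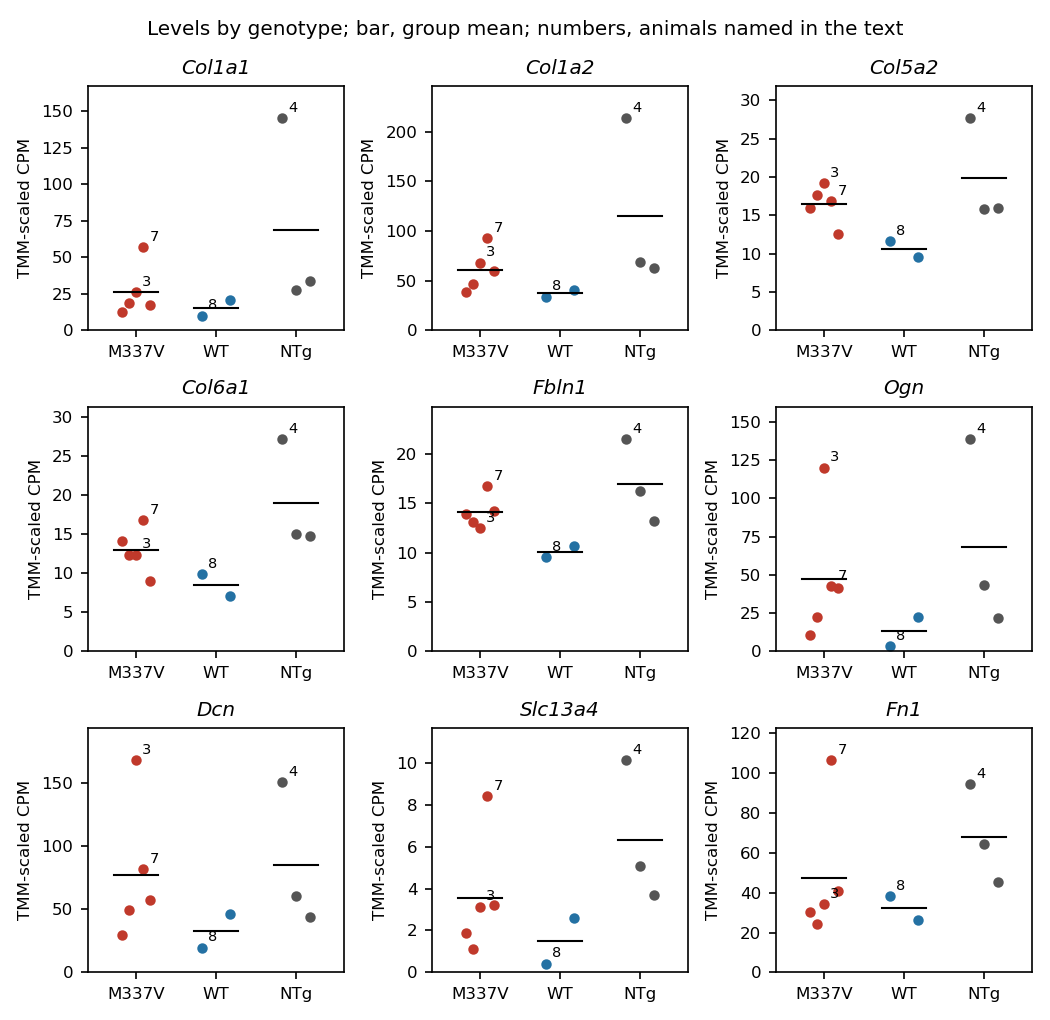
Points are TMM-scaled CPM of 9 members in single libraries, with M337V left of WT and WT left of NTg, and the bar is the group mean. Numbers mark M337V 3, M337V 7, WT 8 and the library labelled NTg 4. Col1a1 and Col1a2 stand highest in the library labelled NTg 4, Dcn and Ogn are high there and in M337V 3, and Slc13a4 and Fn1 are high there and in M337V 7.

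No member was called between M337V and NTg by edgeR's quasi-likelihood test at an adjusted p of 0.05, where 4.29% of the 15191 tested genes were called, 2.67% higher and 1.61% lower. At an unadjusted p under 0.05, 5 of 36 members were lower and none higher, against 12.3% of tested genes lower and 12.2% higher; they were Col1a1, Col1a2, Col5a1, Col6a1 and Fbn1. DESeq2 and limma-voom with quality weights each called 1 member, Fbn1, lower. The log2 difference was below 0 in 35 members and in 52.8% of tested genes, with a median of -0.36 against -0.01, and Postn alone lay above 0. The M337V and NTg libraries overlapped in every member, while 8.61% of tested genes had all M337V libraries below all NTg libraries and 9.51% had them above. Without the library labelled NTg 4, 22 members lay below 0 and 14 above, with a median of -0.06, while the median was -0.60 without M337V 7 and -0.61 without NTg 6. Library numbers in the labels run from 2 to 8 for M337V 7, M337V 9 and all WT and NTg libraries and from 10 to 12 for M337V 1 to 3; the labels do not call this a batch. The median was -0.21 for M337V 7 and 9 alone against NTg, whose numbers fall in 1 run, and -0.57 for M337V 1 to 3 alone. Without M337V 7, 3 members were called lower, Fmod, Fbn1 and Fn1.

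Between WT and NTg, 3 members were called lower and none higher, where 5.64% of tested genes were called, 2.05% lower and 3.59% higher: Col5a2, Col6a1 and Fbln1. At an unadjusted p under 0.05, 20 members were lower and none higher, against 12.5% and 12.8% of tested genes. Both WT libraries lay below all 3 NTg libraries in 24 members, as in 22.1% of tested genes, and above them in none, against 19.6%. The log2 difference was below 0 in 35 members and in 53.3% of tested genes, with a median of -1.04 against -0.02. DESeq2 called 8 members lower and limma-voom none. The 3 calls were lost without WT 8, without WT 10, without the library labelled NTg 4, without NTg 6, and without M337V 1 or M337V 2, which belong to neither group but enter the shared estimate of the spread. Each was also lost singly: Col5a2 without M337V 7, Col6a1 without M337V 3, and Fbln1 without NTg 5 or M337V 9. Without the library labelled NTg 4 the median was -0.66. The comparisons of M337V and of WT with NTg share their NTg libraries.

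Between M337V and WT, no member and none of the 15191 tested genes was called by edgeR, a background of 0%; DESeq2 called 30 genes and no member, and limma-voom called none. At an unadjusted p under 0.05, 5 members were higher in M337V and none lower, against 3.55% and 3.11% of tested genes: Col5a2, Fbln1, Fbln5, Eln and Foxc2. In the same 5 members all M337V libraries stood above both WT libraries, which 4.85% of tested genes did, and in Igfbp2 all stood below, which 4.65% did. The log2 difference was below 0 in 3 members and above it in 33, where 49.8% of tested genes lay below 0, and the median was 0.62 against 0 over all tested genes. Without WT 8 the median was 0.48.

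**Figure D3:**
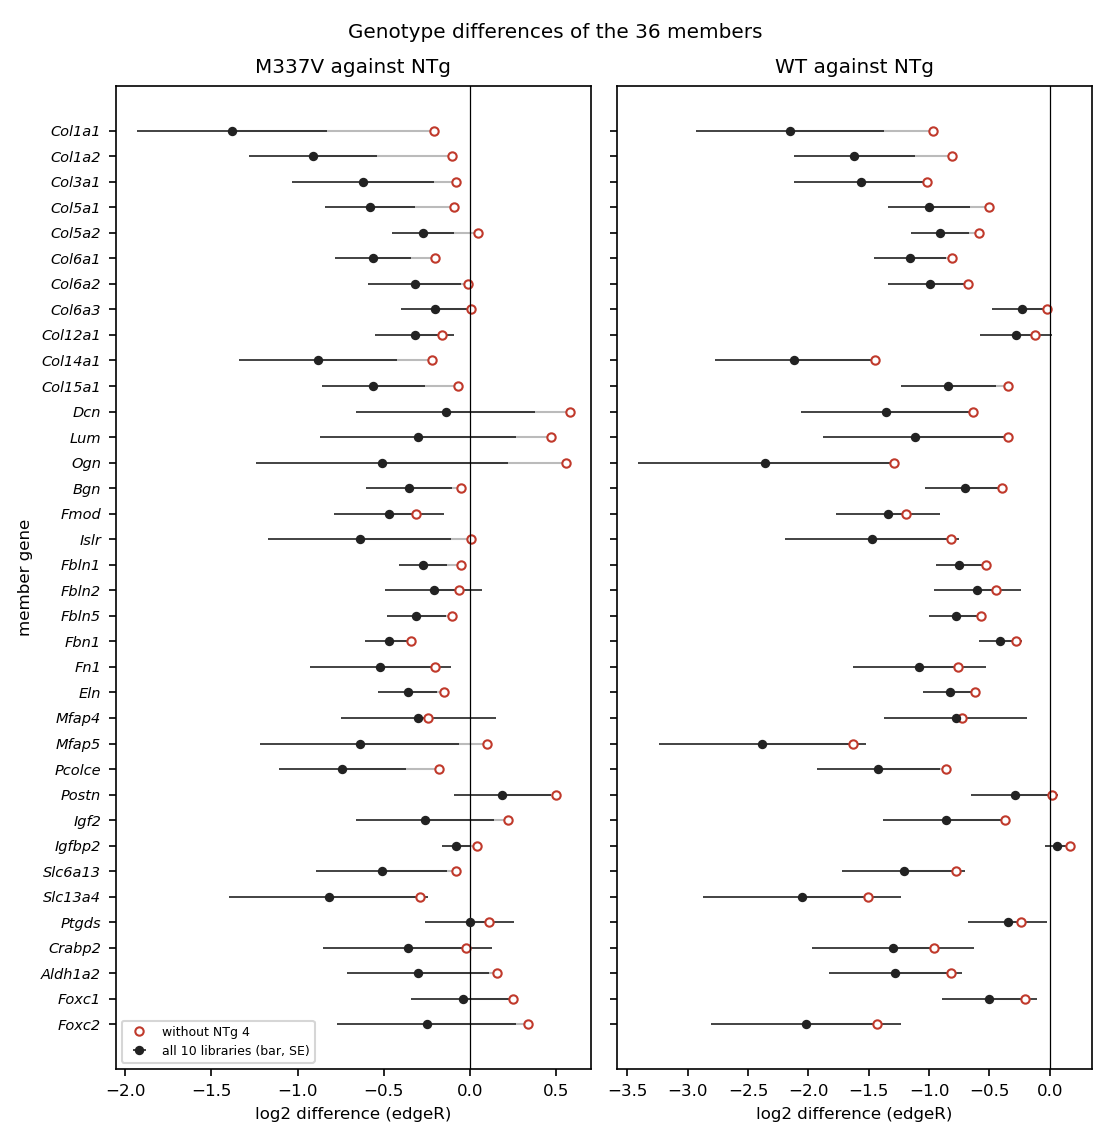
Filled points are edgeR log2 differences of the 36 members with their standard errors (bars), M337V against NTg on the left and WT against NTg on the right, with a horizontal axis of its own in each panel; open points are the same differences without the library labelled NTg 4. Without that library the median of the members was -0.06 for M337V against NTg and -0.66 for WT against NTg.

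The fibrillar collagens form the load-bearing fibrils of the membranes. Col1a1 (chr11:94936224-94953042 in GRCm38), a chain of type I collagen, read 12.8, 18.9, 26.0, 56.8 and 17.5 CPM in M337V 1, 2, 3, 7 and 9, 10.2 and 20.8 CPM in WT 8 and 10, and 145, 27.7 and 33.8 CPM in the libraries labelled NTg 4, 5 and 6. One M337V library overlapped the NTg range, and both WT libraries lay below it. The log2 difference was -1.38 ± 0.55 (SE, adjusted p = 0.149, edgeR) for M337V against NTg and -2.15 ± 0.78 (adjusted p = 0.112) for WT against NTg, and -0.21 and -0.97 without the library labelled NTg 4. Its partner chain Col1a2, whose promoter window is printed above, read 38.9, 46.7, 68.2, 92.9 and 59.7 CPM in M337V, 34.1 and 40.8 CPM in WT, and 214, 69.0 and 62.9 CPM in NTg, in the same order of animals. The differences were -0.91 ± 0.37 for M337V (adjusted p = 0.153, edgeR) and -1.62 ± 0.50 for WT (adjusted p = 0.0746), and without the library labelled NTg 4 they were -0.10 and -0.81. In both chains the library labelled NTg 4 stood far above the other 9.

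Col5a2 (chr1:45374321-45503282, minus strand), a chain of type V collagen that sets fibril diameter, fell in WT cord. Its level was 16.0, 17.7, 19.2, 16.9 and 12.6 CPM in M337V, 11.6 and 9.55 CPM in WT, and 27.7, 15.9 and 16.0 CPM in NTg. Both WT libraries lay below every other library. The log2 difference was -0.91 ± 0.24 (adjusted p = 0.0499, edgeR) for WT against NTg and -0.27 ± 0.18 (adjusted p = 0.396) for M337V against NTg; it was -0.59 (adjusted p = 0.0942) for WT without the library labelled NTg 4. Col3a1 and Col5a1, chains of types III and V, had differences of -0.62 and -0.58 for M337V with neither called, and for WT neither passed, with adjusted p of 0.108 and 0.0962 from edgeR; without the library labelled NTg 4 their M337V differences were -0.08 and -0.09 and that of Col5a2 was 0.05. All 5 fibrillar chains had both WT libraries below the NTg libraries, as 22.1% of tested genes did.

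Collagen VI forms beaded filaments around cells, from chains encoded by Col6a1, Col6a2 and Col6a3. Col6a1 (chr10:76708792-76726168, minus strand) read 14.1, 12.3, 12.4, 16.8 and 8.94 CPM in M337V, 9.84 and 7.11 CPM in WT, and 27.2, 15.02 and 14.8 CPM in NTg. It fell in WT by 1.16 ± 0.30 on the log2 scale (adjusted p = 0.0445, edgeR) with no overlap between WT and NTg, and its M337V difference was -0.56 ± 0.22 (adjusted p = 0.152). Without the library labelled NTg 4 the M337V difference was -0.20 and the WT difference -0.81 (adjusted p = 0.0981). The other chains were not called, with WT differences of -0.99 for Col6a2 and -0.23 for Col6a3. Col6a1 and Col6a2 were lowest in WT 10, whereas the type I chains were lowest in WT 8.

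Of the collagens that sit on fibrils or in basement membrane zones, Col14a1, a fibril-associated collagen, varied most. It read 1.94, 3.06, 9.88, 5.69 and 5.770 CPM in M337V, 1.62 and 2.83 CPM in WT, and 16.8, 6.55 and 5.774 CPM in NTg. The differences were -0.88 ± 0.46 for M337V (adjusted p = 0.261, edgeR) and -2.12 ± 0.65 for WT (adjusted p = 0.0745), and -0.22 and -1.45 without the library labelled NTg 4. Both WT libraries and 4 of the 5 M337V libraries lay below the NTg range, and M337V 3 lay inside it. Col12a1, of the same class, and Col15a1, a multiplexin, differed by -0.32 and -0.56 in M337V and by -0.28 and -0.84 in WT, with neither called. Col12a1 was higher in WT 10, at 35.5 CPM, than in any other library but the one labelled NTg 4.

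The small leucine-rich proteoglycans, which bind collagen and regulate fibril growth, gave the widest span. Ogn (chr13:49608046-49624501) read 10.4, 22.8, 120, 42.9 and 41.5 CPM in M337V, 3.45 and 22.8 CPM in WT, and 139, 43.2 and 21.9 CPM in NTg. Its highest level was 40.2 times its lowest, and the groups overlapped in both comparisons. The log2 differences of -0.51 ± 0.73 in M337V (adjusted p = 0.707, edgeR) and -2.36 ± 1.05 in WT (adjusted p = 0.185) had standard errors too wide for a call. Dcn read 29.7, 49.2, 168, 81.8 and 57.5 CPM in M337V, 19.6 and 46.6 CPM in WT, and 151, 60.6 and 43.6 CPM in NTg. Lum (lumican) read 2.05, 5.79, 19.2, 8.58 and 4.89 CPM in M337V, 4.19 and 4.97 CPM in WT, and 18.1, 6.601 and 5.17 CPM in NTg. Both were highest in M337V 3, just above the library labelled NTg 4, and neither was called: Dcn differed by -0.14 ± 0.52 in M337V and -1.36 ± 0.70 in WT, Lum by -0.30 ± 0.57 and -1.12 ± 0.76.

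Without the library labelled NTg 4 the M337V differences of Dcn, Ogn and Lum were 0.58, 0.56 and 0.47, on the other side of 0 and not called, and their WT differences were -0.64, -1.29 and -0.35. Fmod (fibromodulin) behaved otherwise: it read 8.34, 9.44, 12.02, 27.5 and 14.4 CPM in M337V, 6.70 and 8.92 CPM in WT, and 23.7, 20.1 and 15.7 CPM in NTg. The highest library was M337V 7, the other 4 M337V libraries lay below all NTg libraries, and so did both WT libraries. Its difference was -0.47 ± 0.32 in M337V (adjusted p = 0.395, edgeR) and -1.34 ± 0.43 in WT (adjusted p = 0.0813), and -0.31 and -1.19 without the library labelled NTg 4. Without M337V 7, Fmod, Fn1 and Fbn1 were called lower in M337V than in NTg. Islr, which encodes a secreted leucine-rich repeat protein with an immunoglobulin domain, read 3.48, 6.55, 14.9, 19.4 and 7.49 CPM in M337V, 2.77 and 8.82 CPM in WT, and 27.9, 13.3 and 7.50 CPM in NTg. Islr shares 181 bases of exon on the same strand with Islr2, so its reads are less certain, and its differences of -0.64 ± 0.53 in M337V and -1.47 ± 0.72 in WT were not called; they were 0.01 and -0.82 without the library labelled NTg 4. Bgn (biglycan) differed by -0.35 and -0.70.

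Among the fibulins and elastic fibre genes, Fbln1 (chr15:85205949-85286535), a fibulin of basement membranes and elastic fibres, fell in WT cord. It read 13.9, 13.1, 12.4, 16.8 and 14.2 CPM in M337V, 9.52 and 10.7 CPM in WT, and 21.5, 16.2 and 13.2 CPM in NTg. Both WT libraries lay below all others. The difference for WT was -0.75 ± 0.19 (adjusted p = 0.0405, edgeR), and -0.53 (adjusted p = 0.0912) without the library labelled NTg 4; the M337V difference was -0.27 ± 0.14 (adjusted p = 0.274), and -0.05 without that library. Fbln5 and Eln, a fibulin needed for elastic fibres and elastin itself, had WT differences of -0.78 and -0.83 with adjusted p of 0.0578 and 0.0514, just outside the threshold.

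Fbn1 (fibrillin 1, the backbone of microfibrils) had the smallest p of the members for M337V against NTg. Its level was 13.6, 12.5, 16.0, 17.9 and 12.1 CPM in M337V, 16.7 and 13.5 CPM in WT, and 23.4, 17.2 and 19.4 CPM in NTg. The groups overlapped through M337V 7, and the difference was -0.47 ± 0.14 (adjusted p = 0.0725, edgeR); WT differed by -0.41 ± 0.18 (adjusted p = 0.178). These were -0.34 and -0.28 without the library labelled NTg 4. Fbn1 shares 2442 bases of exon with Gm9913 on the opposite strand, and the strand setting of the counting was not given in the sources used here. Fn1 (fibronectin), the adhesive glycoprotein, read 30.2, 24.1, 34.3, 107 and 41.1 CPM in M337V, 38.2 and 26.1 CPM in WT, and 94.5, 64.2 and 45.3 CPM in NTg. The M337V 7 value stood 3.53 times above the median of M337V 1, 2 and 9, and the other 4 M337V libraries lay below the NTg range; the difference was -0.52 ± 0.41 (adjusted p = 0.472). In WT it was -1.08 ± 0.55 (adjusted p = 0.240), with both WT libraries below NTg. The Fn1 differences were -0.20 and -0.76 without the library labelled NTg 4.

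Mfap5, a microfibril-associated glycoprotein, read 1.94, 4.13, 17.8, 8.43 and 7.23 CPM in M337V, 1.05 and 3.65 CPM in WT, and 22.3, 8.57 and 6.24 CPM in NTg. It followed Ogn and Dcn in being high in M337V 3 and in the library labelled NTg 4 and low in WT 8. Its differences were -0.64 ± 0.58 for M337V (adjusted p = 0.536, edgeR) and -2.38 ± 0.86 for WT (adjusted p = 0.112), and 0.10 and -1.63 without the library labelled NTg 4. The remaining members of this group were not called: Fbln2, Mfap4, Pcolce (the enhancer of procollagen C-proteinase) and Postn had differences of -0.74 to 0.19 in M337V and -1.42 to -0.29 in WT. Mfap4 shares 89 bases of exon with Mapk7 and Pcolce 112 with Fbxo24.

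The leptomeningeal transporters and retinoid genes were low in WT 8 and high in M337V 7 and in the library labelled NTg 4. Slc13a4 (chr6:35267957-35308131, minus strand), a sodium-dependent sulphate transporter, read 1.89, 1.13, 3.14, 8.43 and 3.22 CPM in M337V, 0.419 and 2.58 CPM in WT, and 10.1, 5.07 and 3.68 CPM in NTg. WT 8 was the lowest library, and WT 10 and every M337V library but M337V 7 also lay under the NTg range. The differences were -0.82 ± 0.58 in M337V (adjusted p = 0.415, edgeR) and -2.05 ± 0.82 in WT (adjusted p = 0.148), and -0.29 and -1.51 without the library labelled NTg 4. Aldh1a2, which makes retinoic acid, read 5.07, 4.94, 11.4, 13.5 and 8.89 CPM in M337V, 2.04 and 6.82 CPM in WT, and 16.7, 8.08 and 7.73 CPM in NTg. Crabp2, a retinoic acid carrier, read 0.767, 0.912, 1.57, 3.26 and 1.404 CPM in M337V, 0.314 and 1.32 CPM in WT, and 2.89, 2.02 and 1.21 CPM in NTg. Neither gene was called in either comparison: Aldh1a2 differed by -0.30 ± 0.41 and -1.28 ± 0.55, Crabp2 by -0.36 ± 0.49 and -1.30 ± 0.67. The M337V and WT differences without the library labelled NTg 4 were 0.16 and -0.82 for Aldh1a2 and -0.02 and -0.96 for Crabp2. Slc6a13, a transporter of the transmitter GABA and of taurine, differed by -0.51 and -1.21.

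Ptgds was not called (0 ± 0.26 in M337V and -0.35 ± 0.33 in WT), with 213 to 610 CPM in M337V, 271 and 357 CPM in WT, and 345 to 455 CPM in NTg, and it was highest in M337V 7. Igf2 read 32.6, 32.2, 63.2, 114 and 57.3 CPM in M337V, 30.1 and 49.1 CPM in WT, and 112, 57.8 and 45.3 CPM in NTg. Its differences of -0.26 ± 0.40 in M337V and -0.86 ± 0.52 in WT were not called, and they were 0.22 and -0.37 without the library labelled NTg 4. Igf2 and its neighbour Gm49394 share 3596 bases of exon on the same strand; Gm49394 is not used here. Igfbp2 was the steadiest member: its highest library, the one labelled NTg 4, exceeded its lowest by 1.30 times. The forkhead factor Foxc1, required for the meninges to form in mouse embryos, and its relative Foxc2 were low. Foxc2 read 0.716, 0.698, 1.83, 2.64 and 0.624 CPM in M337V, 0.262 and 0.487 CPM in WT, and 2.595, 1.38 and 0.698 CPM in NTg. Both WT libraries lay below all others, and the difference was -2.02 ± 0.79 in WT (adjusted p = 0.137, edgeR) and -0.25 ± 0.52 in M337V (adjusted p = 0.805); without the library labelled NTg 4 it was 0.34 in M337V and -1.43 in WT.

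**Figure D4:**
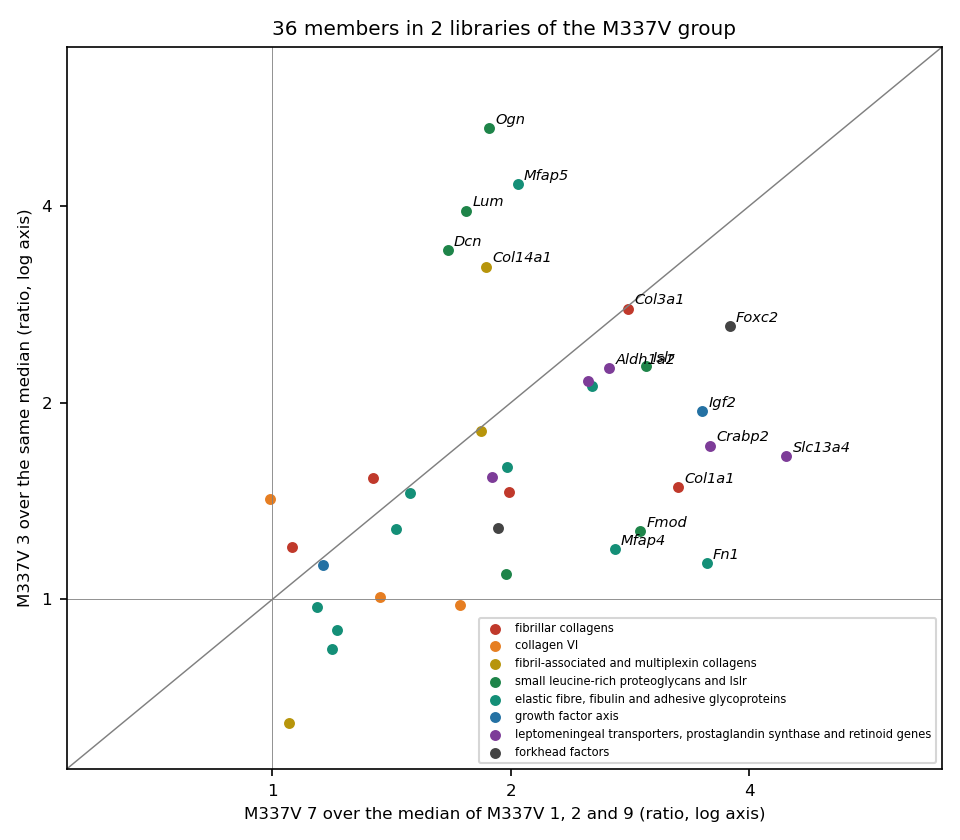
Each point is a member, coloured by role, with its ratio in M337V 7 (horizontal, log axis) and in M337V 3 (vertical, log axis) to the median of M337V 1, 2 and 9; the grey diagonal marks equal ratios. Ogn, Mfap5, Lum, Dcn and Col14a1 lie above the diagonal, and Slc13a4, Fn1, Crabp2, Col1a1 and Igf2 far below it.

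Inside the M337V group, 2 libraries stood above the median of M337V 1, 2 and 9, and partly in different members. In M337V 3, 11 members were over 2 times that median, and in M337V 7, 14 members were, with 7 members in both; 1.88% and 2.23% of tested genes reached 2 times in these libraries. The median member ratio was 1.51 in M337V 3 and 1.91 in M337V 7. Levels were higher in M337V 3 than in M337V 7 in 8 members, Col5a1, Col5a2, Col6a3, Col14a1, Dcn, Lum, Ogn and Mfap5, and lower in the other 28. Ogn and Mfap5 had ratios of 5.27 and 4.31 in M337V 3 but 1.88 and 2.04 in M337V 7, whereas Slc13a4 and Crabp2 had ratios of 1.66 and 1.72 in M337V 3 but 4.45 and 3.57 in M337V 7. These ratios describe single animals of 1 group and carry no test.

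Some genes of other cells also differed between M337V 3 and M337V 7. Prx read 157 CPM in M337V 3 and 61.4 CPM in M337V 7, while Slc47a1, a transporter of the arachnoid barrier, read 2.87 CPM in M337V 3 and 8.58 CPM in M337V 7. Cdh1 (E-cadherin), which marks arachnoid barrier cells but also some Schwann cells, read 7.53 and 10.8 CPM in them, 1.13, 1.45 and 4.73 CPM in M337V 1, 2 and 9, 0.262 and 2.53 CPM in WT, and 13.2, 4.63 and 3.17 CPM in NTg. The list of 25 further meningeal genes that holds Slc47a1 and Cdh1 summed to 1364 CPM in M337V 3 and 1381 CPM in M337V 7. Cldn11 alone gave 560 and 562 CPM of these sums. The mean log2 score of the list, in which genes count alike, was 0.17 in M337V 3 and 0.44 in M337V 7. Genes of that list went either way between these libraries. Of 24 further meningeal genes tested, edgeR called 1 higher and none lower in M337V against NTg, and 1 higher and 1 lower in WT against NTg. In M337V, 1 of the 24 was lower and 3 higher at an unadjusted p under 0.05, against 12.3% and 12.2% of all tested genes. The 3 higher were Cldn11, Alcam and Pdgfra, at 403 to 655, 129 to 157 and 55.1 to 75.7 CPM over the 10 libraries. Whether their reads came from meninges or from cord cells was not tested. In WT, 9 of the 24 were lower and 2 higher at an unadjusted p under 0.05, against 12.5% and 12.8% of all tested genes. Both WT libraries lay below all NTg libraries in 14 and above them in 2, against 22.1% and 19.6% of all tested genes. The median difference of the 24 was -0.22 in M337V and -0.60 in WT, and 0 and -0.40 without the library labelled NTg 4. Cldn11, a tight junction gene of arachnoid and of oligodendrocytes, rose in M337V by 0.36 ± 0.08 (adjusted p = 0.0368, edgeR) and in WT by 0.49 ± 0.10 (adjusted p = 0.0223), and by 0.35 and 0.48, not called, without the library labelled NTg 4. Its M337V call was also lost without M337V 1, 2 or 3 or NTg 6, and its WT call without WT 8, WT 10 or NTg 6. Zic1, a transcription factor of meninges and dorsal cord, fell in WT by 0.66 ± 0.10 (adjusted p = 0.0109, edgeR; 0.0244 without the library labelled NTg 4), at 47.2 to 54.0 CPM in M337V, 32.3 and 33.4 CPM in WT, and 46.3 to 60.2 CPM in NTg.

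**Figure D5:**
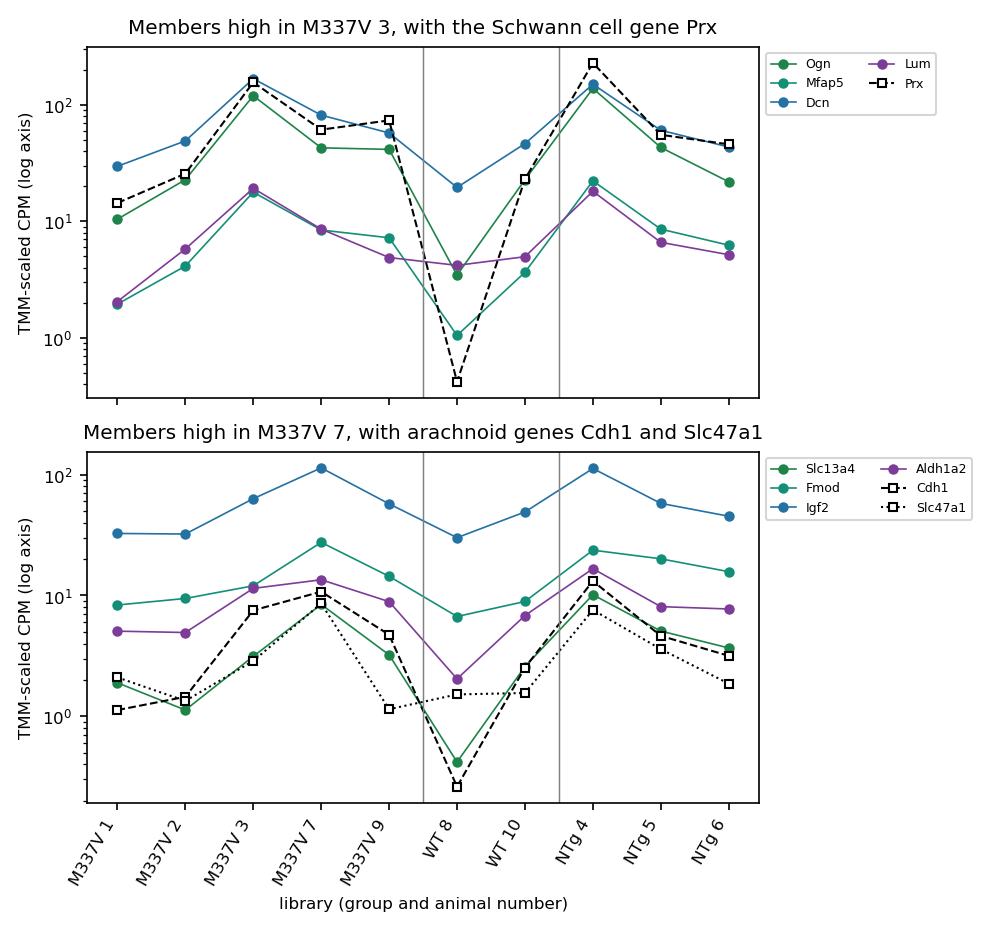
TMM-scaled CPM (log axis) of 4 members in each panel with marker genes drawn as open squares, by library; lines join the values of 1 gene and imply no order. In the upper panel Prx, a gene of Schwann cells, is at 0.419 CPM in WT 8, where Ogn and Mfap5 are also lowest, and in the lower panel Cdh1 and Slc47a1 are high in M337V 7 and in the library labelled NTg 4, as Slc13a4 is.

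The genes around the matrix are set against the shares of all tested genes called, 4.29% in M337V against NTg and 5.64% in WT against NTg. Of 25 genes of collagen synthesis and crosslinking, edgeR called none in M337V against NTg, where 2 were lower at an unadjusted p under 0.05, and 1 was called lower in WT: P3h3, a collagen prolyl 3-hydroxylase family gene, fell by 0.48 ± 0.12 (adjusted p = 0.0368, edgeR). The summed level of these 25 genes was 1875 to 1989 CPM in M337V and 1778 and 1965 CPM in WT. In NTg it was 1963 to 2098 CPM. Sparc alone gave 1192 to 1503 CPM of the sum, which therefore says little of the other genes. The mean log2 score, in which genes count alike, ran from -0.1 to 0.25 over the libraries, against -0.78 to 1.03 for the members. Lox, of this list, read 0.73 CPM in WT 8 and 12.8 CPM in the library labelled NTg 4. None of 13 tested genes of matrix turnover was called in either comparison with NTg; at an unadjusted p under 0.05, 1 was lower in M337V and 2 in WT. In the basement membrane list of 15 genes, 7 were lower in M337V and 11 in WT at an unadjusted p under 0.05, against 12.3% and 12.5% of all tested genes. In this list 1 gene was called: Col18a1, another multiplexin, fell in WT by 0.90 ± 0.23 (adjusted p = 0.0442, edgeR). Neither P3h3 nor Col18a1 was called without the library labelled NTg 4, where they differed by -0.39 and -0.72, nor without WT 8, WT 10 or NTg 6; Col18a1 was also lost without NTg 5 or M337V 1, 3 or 9.

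Among 17 genes of TGF-beta signalling, which drives matrix production in fibroblasts, 1 was called higher and 1 lower in M337V, and 3 higher and 1 lower in WT, against NTg. The receptor gene Tgfbr1 rose by 0.21 ± 0.05 in M337V (adjusted p = 0.0445, edgeR) and by 0.30 ± 0.06 in WT (adjusted p = 0.0256), and Ltbp3, which stores latent TGF-beta in the matrix, fell by 0.24 ± 0.05 (adjusted p = 0.0368) and by 0.29 ± 0.07 (adjusted p = 0.0355). The inhibitor gene Smad7 rose in WT by 0.30 ± 0.07 (adjusted p = 0.0286, edgeR); in M337V its difference was 0.15 ± 0.05 (adjusted p = 0.120), and it was not called between M337V and WT. None of these calls was kept without the library labelled NTg 4 or without NTg 6. The M337V calls of Tgfbr1 and Ltbp3 were also lost without NTg 5 or M337V 1, 2, 3 or 9, the WT calls of Tgfbr1 and Smad7 without WT 8 or WT 10, and that of Ltbp3 without WT 10, NTg 5 or M337V 1, 2 or 9. Of 20 retinoid and insulin-like growth factor genes, 1 was called, and in both comparisons: Aldh1a1, a retinaldehyde dehydrogenase, rose to 255 to 271 CPM in M337V and 253 and 263 CPM in WT, against 164 to 218 CPM in NTg. Its log2 difference was 0.44 ± 0.07 in M337V (adjusted p = 0.0189) and 0.41 ± 0.09 in WT (adjusted p = 0.0284). It was 0.47 (adjusted p = 0.0421) in M337V and 0.44 (adjusted p = 0.0569) in WT without the library labelled NTg 4; the M337V call was lost without M337V 2 or NTg 6, and the WT call also without WT 8, WT 10 or NTg 6.

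Vessel walls also make collagen and basement membrane, and some of their genes fell. Among 12 mural cell genes, 2 were called lower in M337V and 2 in WT against NTg, and 7 and 8 were lower at an unadjusted p under 0.05, as 12.3% and 12.5% of all tested genes were. Acta2, the actin of smooth muscle, had 3.87 to 7.24 CPM in M337V, 3.09 and 2.83 CPM in WT, and 8.29 to 10.0 CPM in NTg. It fell by 0.86 ± 0.19 in M337V (adjusted p = 0.0328, edgeR) and by 1.60 ± 0.26 in WT (adjusted p = 0.0117), and Myh11, a smooth muscle myosin, fell in WT by 1.12 ± 0.29 (adjusted p = 0.0452). Acta2 differed by -0.88 (adjusted p = 0.0666) in M337V and -1.62 (adjusted p = 0.0268) in WT without the library labelled NTg 4, where Myh11 was not called. The M337V call of Acta2 was also lost without NTg 5, NTg 6 or M337V 1, 2 or 3, and its WT call only without WT 10. The Myh11 call was also lost without NTg 5, NTg 6, WT 8, WT 10 or M337V 1 or 9. The third called gene, Des, is also a skeletal muscle gene. Of 12 endothelial genes, 1, Egfl7, was called lower in WT, and at an unadjusted p under 0.05, 1 was lower in M337V and 6 in WT. The Egfl7 call was lost without the library labelled NTg 4, NTg 5, WT 8, WT 10 or M337V 2, 7 or 9. Of 15 Schwann cell and nerve root genes, none was called lower by edgeR. At an unadjusted p under 0.05, none was lower in M337V and 8 were lower in WT, and 4 were higher in each. S100b, called higher in both comparisons, and Plekhb1, called higher in M337V, are also glial genes of the cord. In the perineurial list Etv1 was called higher in both. It read 82.0 CPM in the library labelled NTg 4, 76.4 and 73.3 CPM in NTg 5 and 6, and 109 to 129 CPM in M337V and WT. For Etv1, unlike human TARDBP, the library labelled NTg 4 thus lay near the other NTg libraries. Of 13 skeletal muscle genes, 2 were called lower in M337V and none in WT, with 12 and 0 lower at an unadjusted p under 0.05, and of 10 blood and bone marrow genes 6 were called lower in M337V and 5 in WT, with 7 lower at an unadjusted p under 0.05 in each. Of all genes of these cell and pathway lists called against NTg, 5 of 19 calls in M337V and 4 of 21 in WT were kept without the library labelled NTg 4. With each of the 10 libraries left out in turn, the calls kept every time included those of Etv1 in both comparisons and of Zic1 in WT. No gene of the adipocyte, bone, dorsal root ganglion, choroid plexus or caudal Hox lists was called by edgeR in either comparison; at an unadjusted p under 0.05, 3 bone genes passed in M337V (2 lower), and 1 bone gene and 1 choroid plexus gene passed in WT.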

How the data were processed

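Lumbar spinal cord RNA from 10 mice was sequenced as paired ends from a stranded polyA kit, with RNA integrity above 8, per the labels' protocols. The deposited table holds raw counts per gene, whole numbers not normalized by the authors. The submitters' processing notes name Trimmomatic 0.32, STAR 2.4.2a, featureCounts of Subread 1.4.6, Salmon 0.8.2 and DESeq2 1.14.1 without roles; the sources used here give neither the genome build nor the strand setting of the counting. No column was left unused. Identifiers were named from GENCODE vM21 (GRCm38), which matched 21774 of 22024, and gene coordinates and exon lengths come from it; exon lengths merge all annotated transcripts. Promoter windows came from RefSeq (GRCm38.p6).

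Counts were tested with edgeR 4.0.16 (quasi-likelihood, R 4.3.3): TMM scaling, a low-count filter (minimum count 10, total 15), a mean for each genotype over all 10 libraries and Benjamini-Hochberg adjustment over 15191 genes, called at 0.05. CPM use TMM-scaled library sizes, and scores use log2(CPM + 0.5). The scripts' tests were run on simulated counts. Replicates are separate mice. No 2 libraries of a group agreed within sampling noise (lowest chi-square per degree of freedom 4.87). Alternatives were RLE scaling, no filter, GC and length trends removed, DESeq2 1.42.0, limma-voom 3.58.1, fits of both groups alone, and leaving out libraries. Values in every library are given for called members, for the 12 with the largest range among those averaging at least 1 CPM, and for Fbn1, Fn1, Fmod and Igf2, added after their values were seen. Of the called genes of other lists, at most the 3 with the smallest p are named for each comparison. Some genes of these lists that were not called are named for their levels. The members, lists and libraries left out were chosen with earlier results of these data known. The values of 2 marker genes are not reported here.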

Additional observations from a re-analysis of the deposited data

Results flagged for a closer look

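Among the 5 M337V libraries, 1 library stood far from the others in 4 of the 36 members, and it was M337V 7 each time. The rule was Dixon's test on CPM, the gap to the nearest library over the whole range. Its nominal rate of about 1 in 20 genes assumes normally spread values. It was run on the members alone, so the share of all tested genes that it marks is not known. M337V 7 was among the highest 3 libraries in 28 members, so the 4 are not independent. Whether 4 exceeds chance was not tested. Bgn read 37.8 CPM there, Fn1 read 107 CPM, Mfap4 read 4.497 CPM and Slc13a4 read 8.43 CPM. The highest values of the other 4 M337V libraries were 21.8 CPM for Bgn, 41.1 CPM for Fn1, 1.99 CPM for Mfap4 and 3.22 CPM for Slc13a4. The groups of 2 and 3 libraries are too small for this test.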

How the results depend on the processing

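No paired analysis was possible because the labels give no litter or other pairing of the animals. In M337V against NTg, where no member was called, DESeq2, limma-voom and leaving out M337V 7 and 9 called 1, 1 and 2 members, and leaving out 1 library called 0 to 3. All genes called there numbered 651, against 338 with GC and length trends removed, 1499 with DESeq2, 1315 with limma-voom, 1057 from M337V and NTg fitted alone, 3 without M337V 1 to 3, 1146 without M337V 7 and 9, and 2 (without NTg 6) to 1016 with 1 library left out.

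In WT against NTg, 8 members were called with DESeq2, 1 (Fmod) from these groups fitted alone, and 0 with limma-voom, with GC and length trends removed, and without both the library labelled NTg 4 and WT 8; leaving out 1 library gave 0 to 3. The genes called there were 857, against 1720 with DESeq2, 215 with limma-voom, 258 from WT and NTg fitted alone, 142 without those 2 libraries, and 44 (without NTg 6) to 1086 with 1 library left out. The members' median moved to -0.48 without both libraries. In M337V against WT, the 0 genes called became 30 with DESeq2, 1 with no filter, 4 without both libraries, 4 without M337V 7 and 9, and 0 to 6 with 1 library left out.

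M337V against NTg differences changed sign without the library labelled NTg 4, to 0.58 for Dcn, 0.56 for Ogn, 0.47 for Lum, 0.34 for Foxc2, 0.25 for Foxc1, 0.22 for Igf2, 0.16 for Aldh1a2, 0.10 for Mfap5, 0.05 for Col5a2, 0.04 for Igfbp2 and 0.01 for Islr and Col6a3, with the same values without WT 8 as well (0.33 for Foxc2). Without M337V 1 to 3, Foxc1 was 0.35, Igf2 0.26, Fbln2 0.24, Mfap4 0.24, Crabp2 0.20, Fn1 0.13, Fmod 0.09, Foxc2 0.08, Aldh1a2 0.06 and Bgn 0.02, and with GC and length trends removed Foxc1 was 0.11 and Igfbp2 0.05. Dcn was 0.08 and Foxc1 0.13 without M337V 1, Foxc1 was 0.02 without M337V 2, and Mfap4 0.10 without NTg 5. With 1 library left out the lowest values were -0.63 for Dcn, -1.20 for Ogn, -0.89 for Lum, -0.67 for Foxc2, -0.26 for Foxc1, -0.62 for Igf2, -0.50 for Aldh1a2, -1.18 for Mfap5, -0.41 for Col5a2, -0.15 for Igfbp2, -0.99 for Islr, -0.33 for Col6a3 and -0.73 for Mfap4. In WT against NTg, Col12a1 was 0.33 without both the library labelled NTg 4 and WT 8 and -0.95 to 0.17 with 1 library left out, Postn was 0.07 without both and -0.48 to 0.02 with 1 left out, and Igfbp2 was -0.02 to 0.17 with 1 left out. None of these values was past the threshold, and the cause was not tested. Groups of 2 and 3 animals, and members under 2 CPM, limit the precision.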
